A study of Mus musculus with 6 samples.

Results

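The genes described here are the zinc-responsive set Mt1, Mt2, Mtf1, Slc30a1 and Slc39a10, taken by symbol from a deposited table of 39179 genes, of which these are 5. Expression was measured by RNA sequencing of sorted liver endothelium, with 3 libraries per diet and 6 in all, from male wild-type mice of the 129S6/SvEvTac strain. The control_iron mice ate a purified AIN-93G diet with 37 ppm iron as ferric citrate. The high_iron mice ate the same type of diet with 10000 ppm iron as carbonyl iron. In both groups the diet started at 3 weeks of age and lasted 4 weeks, and cells were sorted at 7 weeks as CD31+ and CD146+ cells without CD45, lineage markers, MHC class II or CD64. The series text calls the samples biological replicates and does not say whether 1 or several mice gave each one, so the spread between them may be in part technical.

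Metallothioneins are small cysteine-rich proteins that bind zinc and copper, and Mt1 and Mt2 are the forms made in liver. Zinc switches their genes on through MTF1, a zinc-finger transcription factor that senses free zinc and binds short promoter sequences called metal response elements. The same factor acts on the zinc exporter gene Slc30a1 (ZnT1) and represses the importer gene Slc39a10 (ZIP10). Glucocorticoids, cytokines and oxidants also induce metallothioneins, and hepatocytes make them in large amounts. The comparison asks how these transcripts differ in liver endothelium after dietary iron loading.

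The libraries held 12963510 to 21663543 reads assigned to genes. CPM here means reads of 1 gene divided by the normalized size of its library, and RPKM, the same value per kilobase, is used where genes are set against each other. Each of the 5 genes had between 224 and 21488 reads in a library, so counting error was at most 6.68%. Fold changes are on the log2(CPM + 1) scale, high_iron minus control_iron, from a limma fit to 12980 genes with Benjamini-Hochberg adjustment over all of them. At an adjusted p under 0.05, 1.02% of genes were called in either direction, with 0.832% higher and 0.193% lower. The sorted cells carried endothelial transcripts: 11 endothelial markers, among them Stab2, Kdr and Pecam1, summed to 26200 to 31198 CPM in control_iron and 24382 to 24802 CPM in high_iron libraries, without overlap. Limma called none of the 11, and DESeq2 called 1 higher, Lyve1, against 2.53% of all genes tested. Only 2 had a positive log2 fold change, Lyve1 (0.64) and Stab1 (0.19). Mcam, the gene of the sorting marker CD146, was at 18.4 ± 8.46 and 8.85 ± 2.26 CPM (SD, n = 3; log2 fold change -0.91; limma adjusted p = 0.28).

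None of the 5 genes passed the adjusted threshold in limma. Both metallothionein genes were higher in every high_iron library than in any control_iron library, and their 95% confidence intervals lay above 0. Mt1 averaged 2.53 times and Mt2 1.97 times their control level. Mtf1 was also higher in each high_iron library, by much less, while Slc30a1 and Slc39a10 overlapped between the diets. Thus 3 of the 5 genes had groups that did not overlap, all in the higher direction, against 9.46% of genes tested. In the same fit 2 of the 5 had an unadjusted p under 0.05, against 12.1% of genes in either direction. On the recovered reads, edgeR called none of the 5 (0.863% of all genes) and DESeq2 called Mt1 higher (3.27% of all genes in either direction, 2.53% higher and 0.74% lower).

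**Figure D1:**
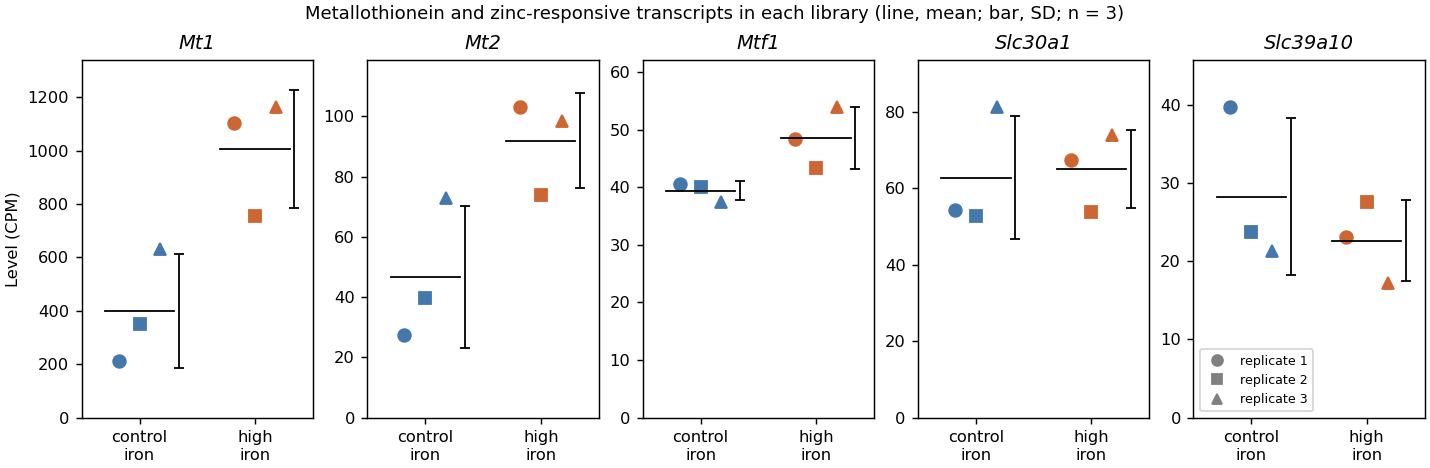
Level of each gene in CPM (vertical axes from 0, a scale for each gene) in the 3 control_iron (blue) and 3 high_iron (orange) libraries, with symbols for the replicate number, a line at the mean and a bar for the SD. Mt1 runs from 213 to 632 CPM on the control diet and from 754 to 1164 CPM on the high-iron diet, and Mt2 keeps the same order of groups, while Slc30a1 and Slc39a10 overlap.

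Mt1 (ENSMUSG00000031765) was by far the most abundant of the 5. In GRCm38 (mm10) it spans chromosome 8, 94179082 to 94180327, plus strand. Its level was 213, 349 and 632 CPM in control_iron replicates 1, 2 and 3. In high_iron replicates 1, 2 and 3 it was 1103, 754 and 1164 CPM. The control libraries thus differed 2.97-fold among themselves, and the lowest high_iron library stood 1.19-fold above the highest control. The group means were 398 ± 214 and 1007 ± 221 CPM (SD, n = 3 per group). The log2 fold change was 1.45 ± 0.34 (SE), with a 95% confidence interval of 0.69 to 2.21 and an adjusted p of 0.091. Of the 12980 genes tested, 77 had a larger log2 fold change, and by p Mt1 ranked 253. The spread of Mt1 among the control libraries was wide for any gene, since 96.6% of genes tested had a smaller SD of log2 values there. Among high_iron libraries 84.7% did.

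Per kilobase, Mt1 ranked 26 of all genes tested by mean RPKM. Its rank was 75, 54 and 31 in control_iron replicates 1 to 3. In high_iron replicates 1 to 3 it was 18, 23 and 17. Mt1 and Mt2 together took 2.49, 3.87 and 6.88 of every 10000 reads in genes in the control libraries, and 12.2, 8.12 and 12.7 in the high_iron libraries. These sums repeat the order of Mt1, which supplied most of the reads.

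Mt2 (ENSMUSG00000031762), the second liver metallothionein, lies 5513 bases before Mt1 on the same strand, on chromosome 8 from 94172664 to 94173568. Its level was 27.4, 39.6 and 73.1 CPM in control_iron replicates 1, 2 and 3. In high_iron replicates 1, 2 and 3 it was 103, 73.9 and 98.6 CPM. Control_iron replicate 3 and high_iron replicate 2 were all but level, so the gap between the groups was 1.01-fold. The group means were 46.7 ± 23.6 and 91.9 ± 15.7 CPM (SD, n = 3 per group), and the log2 fold change was 1.06 ± 0.30 (SE; 95% confidence interval 0.38 to 1.74; adjusted p = 0.17). An antisense gene model on the opposite strand, Gm45774, covers 73.5% of the exon length of Mt2 and has no row in the table. The library kit does not mark strand, so reads from that model and from Mt2 cannot be told apart.

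Both metallothioneins gave the control libraries the same order, with replicate 1 lowest and replicate 3 highest. In the high_iron group replicate 2 was lowest for both genes, while the highest was replicate 3 for Mt1 and replicate 1 for Mt2. The Mt1 to Mt2 ratio of CPM was 7.76, 8.82 and 8.65 in control_iron replicates 1 to 3. It was 10.7, 10.2 and 11.8 in high_iron replicates 1 to 3. The ratio does not depend on how a library is scaled, and its groups did not overlap. On the log2(CPM + 1) scale it averaged 3.04 ± 0.11 and 3.43 ± 0.11 (SD, n = 3), a difference of 0.39 with a two-sided exact permutation p of 0.10, the smallest that 3 against 3 libraries allow. Mt1 transcripts shared 79.4% identity with Mt2 over 35.3% of their length, and no transcript of another gene matched any of the 5 genes at 95% identity or more over at least 50% of its length in 1 alignment.

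The promoters of Mt1, Mt2 and Slc30a1 are shown because these are the members with matches to the metal response element, the sequence MTF1 binds. Sequences are from RefSeq on GRCm38.p6, 5′ to 3′ on the strand of the gene (plus for these 3), from 250 bases before the annotated start to 30 bases after it. They cover chr8:94178839-94179118 for Mt1, chr8:94172368-94172647 for Mt2 and chr1:191906531-191906810 for Slc30a1. Capitals mark matches to the core of the metal response element, TGCACNC or TGCGCNC, on either strand.
Mt1: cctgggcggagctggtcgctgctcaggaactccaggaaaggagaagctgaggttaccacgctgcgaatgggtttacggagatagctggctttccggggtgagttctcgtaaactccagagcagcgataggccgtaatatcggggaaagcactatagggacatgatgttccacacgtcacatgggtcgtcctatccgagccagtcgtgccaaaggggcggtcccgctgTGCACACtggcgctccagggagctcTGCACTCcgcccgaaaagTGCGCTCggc
Mt2: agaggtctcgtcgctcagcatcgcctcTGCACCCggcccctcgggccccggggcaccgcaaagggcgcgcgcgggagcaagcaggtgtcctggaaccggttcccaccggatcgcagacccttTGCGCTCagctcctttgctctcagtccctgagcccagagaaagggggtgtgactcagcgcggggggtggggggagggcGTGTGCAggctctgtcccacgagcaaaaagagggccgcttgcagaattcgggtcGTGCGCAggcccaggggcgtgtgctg
Slc30a1: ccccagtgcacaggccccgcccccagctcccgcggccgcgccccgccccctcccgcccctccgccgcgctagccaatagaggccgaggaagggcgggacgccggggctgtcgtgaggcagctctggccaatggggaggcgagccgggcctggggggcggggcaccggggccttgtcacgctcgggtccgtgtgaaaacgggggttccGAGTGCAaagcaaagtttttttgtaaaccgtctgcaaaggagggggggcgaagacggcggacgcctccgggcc

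All 5 genes had promoters in the RefSeq table, which reaches 50 bases past the start, and the whole window of 300 bases was searched on both strands. Mt1 had 3 matches to the metal response element core, at -23, 2 and 20 bases from the annotated start (first base of the match). Mt2 had 4, at -223, -128, -50 and 4. Slc30a1 had 2, at -43 and 30, of which the second lies beyond the bases shown. Neither annotated start of Slc39a10 had a match in this window, nor had that of Mtf1. Among 32851 promoters of the same length, 25.7% held at least 1 match, 1.97% at least 3 and 0.517% at least 4. The core of the antioxidant response element, TGACNNNGC, to which NRF2 binds, had 1 match in Mt2 and 1 in Slc30a1, and neither overlapped a metal response element. Mt1 had none in this window. At least 1 match to this core stood in 12.4% of promoters. Sequence outside the window was not searched for any gene. The Mt1 metal response element matches at 2 and 20 lie past its annotated start, so the Mt1 counts hold for this window alone. That limit covers the lack of an antioxidant response element match in Mt1 as well. The counts therefore do not rank Mt1 against Mt2.

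**Figure D2:**
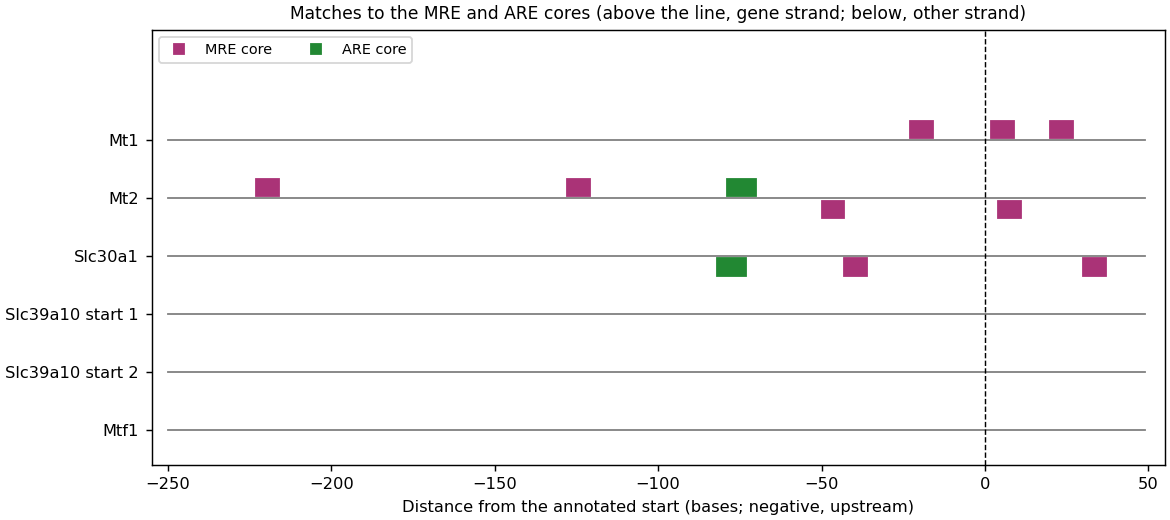
Positions of matches to the metal response element core (MRE, purple) and the antioxidant response element core (ARE, green) in the promoter windows of the 5 genes, with Slc39a10 at both of its annotated starts. The horizontal axis is the distance in bases from the annotated start, and blocks above or below a line are on the strand of the gene or on the other strand. Mt1 has 3 and Mt2 has 4 MRE matches, Slc30a1 has 2, and Slc39a10 and Mtf1 have none.

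The same matches were counted over the tested genes that had a promoter in the RefSeq table, 9089 of 12980. Of these 9089 genes, 79 (0.869%) were called higher and 14 lower, with a median log2 fold change of -0.00. Gclc, Slc40a1, Selenow and Ndrg1, genes reported to depend on MTF1 and described below, were not among them. The 3659 genes with at least 1 metal response element match had a median of -0.00, with 24 called higher (0.656%) and 7 lower. The 347 genes with at least 3 metal response element matches had a median of 0.02, with 1 called higher (0.288%) and 1 lower. The 1576 genes with an antioxidant response element match had a median of 0.01, with 29 called higher (1.84%) and 3 lower. The part of either element in the calls was not tested.

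Mtf1 (ENSMUSG00000028890), the metal-sensing transcription factor, spans chromosome 4, 124802104 to 124849800, plus strand. It was at 40.6, 40.0 and 37.5 CPM in control_iron replicates 1 to 3. In high_iron replicates 1 to 3 it was at 48.4, 43.3 and 54.0 CPM. The high_iron libraries were all above the controls, by 1.07-fold at the closest. Its control values were among the tightest in the data, since only 4.26% of genes tested had a smaller SD there. The log2 fold change was 0.29 ± 0.14 (SE; 95% confidence interval -0.03 to 0.61; adjusted p = 0.45). Exons of 1110065P20Rik on the other strand cover 8.09% of its exon length, and that gene stood at 6.86 to 11.8 CPM.

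Slc30a1 (ENSMUSG00000037434), which moves zinc out of the cell and is a standard readout of MTF1 activity, spans chromosome 1, 191906767 to 191913247, plus strand. Control_iron replicates 1 to 3 held 54.3, 52.7 and 81.3 CPM. High_iron replicates 1 to 3 held 67.4, 53.8 and 73.9 CPM. The highest library of all was a control, replicate 3. The log2 fold change was 0.07 ± 0.20 (SE), and its 95% confidence interval, -0.37 to 0.51, allows a level between 0.772 and 1.42 times that of the controls (adjusted p = 0.91). The sign of the change turned without control_iron replicate 1 (-0.02) or 2 (-0.04), and without high_iron replicate 3 (-0.03).

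Slc39a10 (ENSMUSG00000025986), the importer that MTF1 represses, spans chromosome 1, 46807544 to 46892852, minus strand. Its level was 39.8, 23.7 and 21.3 CPM in control_iron replicates 1 to 3. It was 23.1, 27.5 and 17.2 CPM in high_iron replicates 1 to 3. Control_iron replicate 1, where Mt1 and Mt2 were lowest, was the highest library, and high_iron replicate 3, where Mt1 was highest, was the lowest. The libraries between them did not keep the reverse order of Mt1. High_iron replicate 2, with Mt1 at 754 CPM, held more Slc39a10 than control_iron replicate 2, with Mt1 at 349 CPM. The groups overlapped, with a log2 fold change of -0.28 ± 0.26 (SE; 95% confidence interval -0.86 to 0.29; adjusted p = 0.68). Without control_iron replicate 1 the log2 fold change was -0.02.

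Per kilobase, the order of mean levels was the same on both diets for the upper members. Mt1 stood at 741 ± 398 and 1875 ± 412 RPKM in control_iron and high_iron libraries (SD, n = 3), and Mt2 at 84.5 ± 42.7 and 166 ± 28.5 RPKM. Slc30a1 followed at 11.2 ± 2.88 and 11.6 ± 1.84 RPKM. Below it, Slc39a10 and Mtf1 did not differ beyond their spread on the control diet, at 4.75 ± 1.69 and 4.43 ± 0.19 RPKM. On the high-iron diet Mtf1 was at 5.46 ± 0.60 and Slc39a10 at 3.80 ± 0.87 RPKM.

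The other metallothioneins were absent or nearly so. Mt3, a form known from brain, had 1 read in 1 library. Mt4, a form known from squamous epithelium, had 0 reads in all 6, so that a floor of 3 reads allows between 0.139 and 0.231 CPM, depending on the library. Neither was tested.

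Of 9 genes reported to depend on MTF1, all tested, limma called 2 higher and none lower, against 0.832% and 0.193% of all genes tested. Their median log2 fold change was 0.21 against -0.00 over all genes tested. The list includes Mt1, Mt2 and Slc30a1, and also Slc39a10, which MTF1 represses. It was chosen with earlier results of these data known, so its count and median do not measure MTF1 activity. The pair that rose was Gclc, a subunit of the enzyme that limits glutathione synthesis, and Slc40a1, the iron exporter ferroportin. Gclc was at 81.2, 94.5 and 77.2 CPM in the control and 303, 459 and 391 CPM in the high_iron libraries (log2 fold change 2.16 ± 0.17, SE; adjusted p = 3.3e-04). Slc40a1 was at 477, 520 and 454 CPM in the control and 1452, 1598 and 2028 CPM in the high_iron libraries (1.79 ± 0.16, SE; adjusted p = 8.8e-04). Both genes also answer to NRF2, and Slc40a1 is abundant in macrophages. DESeq2 called 3 of the 9 higher (Gclc, Slc40a1 and Mt1) and 1 lower, against 2.53% and 0.74% of all genes tested. The lower one was Ndrg1, a stress-response gene, which limma did not call (log2 fold change -0.87 ± 0.23, SE; adjusted p = 0.13). Selenow, a selenoprotein gene listed under its older symbol, was at 226 ± 67.8 and 230 ± 31.3 CPM, and Csrp1, a LIM-domain protein gene, at 146 ± 35.3 and 167 ± 25.0 CPM (SD, n = 3). Neither passed the test.

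The zinc transporter lists held members with differences of either sign. Of 10 zinc exporter genes 7 were tested, with a median log2 fold change of -0.02. Limma and edgeR called none, while DESeq2 called 1 lower, against 0.74% of all genes tested. Limma gave 2 of the 7 an unadjusted p under 0.05, against 12.1% of all genes tested. The 10 exporter genes summed to 326 to 334 CPM in the control and 332 to 338 CPM in the high_iron libraries. The exporter that DESeq2 called was Slc30a4, which loads zinc into vesicles. Slc30a4 was at 41.6, 40.4 and 32.6 CPM in the control and 24.0, 23.5 and 22.4 CPM in the high_iron libraries, groups that did not overlap (8.44% of genes tested were apart in this direction). Its log2 fold change was -0.68 ± 0.16 (SE; adjusted p = 0.085 in limma and 0.0051 in DESeq2). Slc30a9, a mitochondrial zinc transporter, was at 69.7 ± 6.52 and 88.1 ± 10.8 CPM (SD, n = 3; adjusted p = 0.40).

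Of 14 zinc importer genes 11 were tested, and limma, edgeR and DESeq2 called none, with a median log2 fold change of 0.07. Limma gave 2 of the 11 an unadjusted p under 0.05, against 12.1% of all genes tested. Slc39a8 (ZIP8), which carries zinc, manganese and iron, was the most abundant per kilobase, at 56.7 ± 9.21 and 54.3 ± 0.94 RPKM (SD, n = 3). Its log2 fold change was -0.05, with a 95% confidence interval of -0.38 to 0.28. Slc39a14 (ZIP14), the carrier through which hepatocytes take up iron and zinc, was low, at 1.17 ± 0.21 and 1.23 ± 0.12 RPKM, with an interval of -0.38 to 0.53. Slc39a6, an importer close to Slc39a10 in sequence, was at 13.8 ± 1.80 and 20.7 ± 1.49 CPM without overlap (log2 fold change 0.56; adjusted p = 0.22). Slc39a11 was likewise apart, at 16.4 ± 2.19 and 22.6 ± 1.20 CPM (0.44; adjusted p = 0.34). Of all genes tested 9.46% were apart in this direction. Slc39a1, the next most abundant per kilobase, was at 42.1, 53.9 and 106 CPM in the control and 53.6, 35.1 and 47.0 CPM in the high_iron libraries, with control_iron replicate 3 far above the rest.

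**Figure D3:**
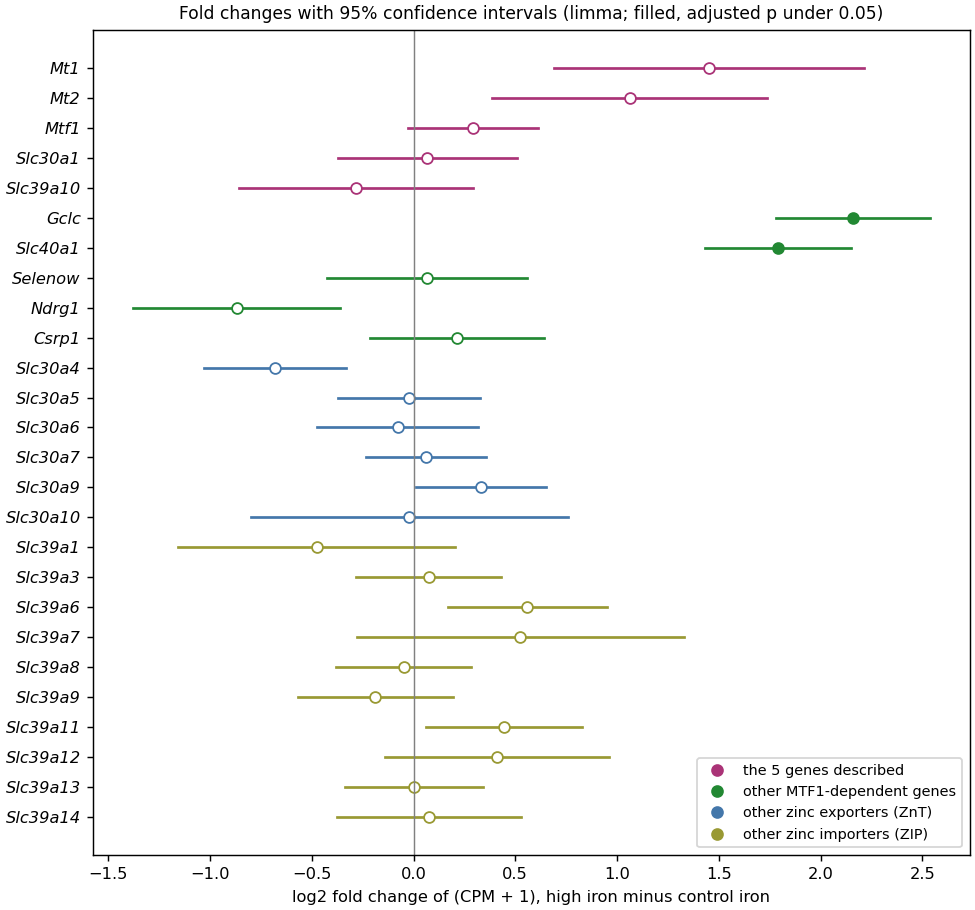
Log2 fold change of CPM + 1, high_iron minus control_iron (horizontal axis), with 95% confidence intervals from limma, for the 5 genes, the other genes reported to depend on MTF1, and the other tested zinc exporters and importers. Filled circles passed an adjusted p of 0.05, which Gclc and Slc40a1 alone did, and the intervals of Mt1 and Mt2 lie above 0.

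Short transcripts as a class varied between the libraries, and Mt1 and Mt2, with deposited lengths of 537 and 553 bases, are short. Among the 1301 tested genes of at most 1231 bases, the shortest of 10 equal classes, the median deviation from the mean over libraries was -0.17, 0.10 and 0.31 (log2) in control_iron replicates 1 to 3. It was -0.01, -0.18 and -0.01 in high_iron replicates 1 to 3. Control_iron replicate 1 was thus low and replicate 3 high in short genes, as they were within their group for Mt1 and Mt2, and high_iron replicate 2 was low for all of them. The deviations of Mt1 were larger, at -1.49, -0.77 and 0.08 in the controls and 0.88, 0.33 and 0.96 in the high_iron libraries.

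An alternative chosen after the data were seen subtracted, in each library, the median deviation of genes in the same length class. The control SD of Mt1 on the log2 scale went from 0.78 to 0.55 and that of Mt2 from 0.70 to 0.47. The log2 fold changes became 1.60 for Mt1 (adjusted p = 0.026, limma) and 1.21 for Mt2 (adjusted p = 0.039), both past the threshold. Without control_iron replicate 3, the control with the highest Mt1 and Mt2, the values as deposited also passed, at 1.86 (adjusted p = 0.025) and 1.44 (adjusted p = 0.032). Without any other library neither gene passed, with an adjusted p of up to 0.37 for Mt1 and 0.54 for Mt2.

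**Figure D4:**
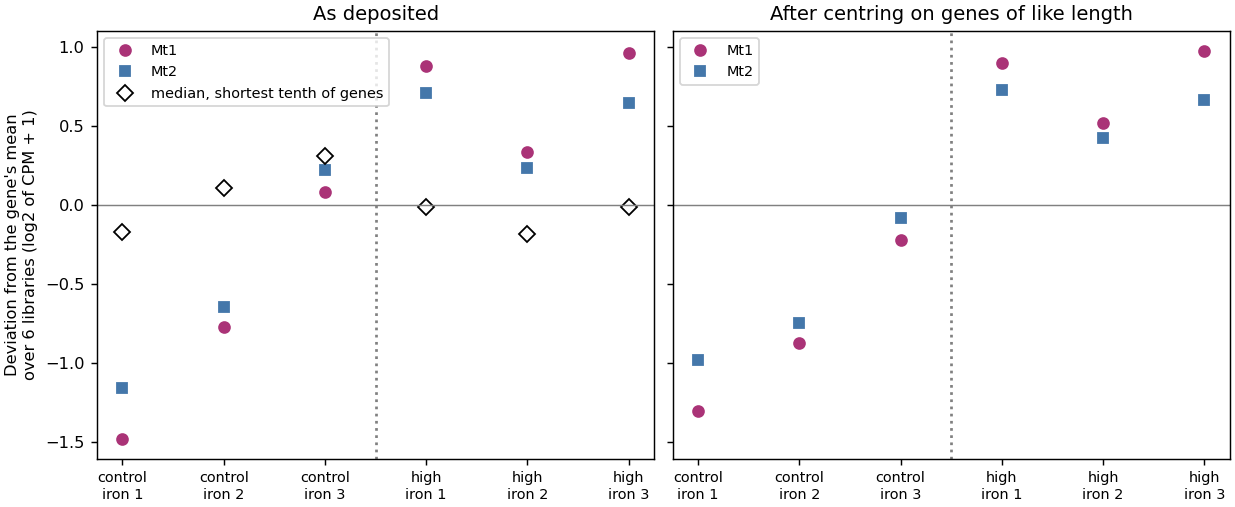
Deviation of Mt1, Mt2 and the median of the shortest length class of tested genes from their means over the 6 libraries (vertical axes, log2 of CPM + 1), as deposited (left) and, for Mt1 and Mt2, after centring on genes of like length (right). Control_iron replicate 3 is the library with the highest short-gene median (0.31), and centring takes the difference between group means from 1.45 to 1.60 for Mt1 and from 1.06 to 1.21 for Mt2.

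Transcripts of other liver cells were present in the sorts, and fewer cells of a type and less RNA per cell cannot be told apart in bulk libraries. All 15 hepatocyte markers had a positive log2 fold change (median 0.71), and none passed in limma or edgeR. DESeq2 called 3 higher, against 2.53% of all genes tested. In limma 6 had an unadjusted p under 0.05, against 12.1% of all genes in either direction. With the replicate block limma called 6 of the 15, where it called 402 of all 12980 genes. Without control_iron replicate 2 it called 2 of the 15. None of the 15 was at 0. Their summed level was 250, 973 and 542 CPM in control_iron replicates 1 to 3. In high_iron replicates 1 to 3 it was 595, 1103 and 884 CPM. These sums overlapped between the diets, with control_iron replicate 1 lowest and high_iron replicate 2 highest. The part of hepatocyte transcripts in the metallothionein levels was not tested.

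Of 11 Kupffer cell markers 3 rose in limma, Csf1r, Clec4f and Marco, against 0.832% of all genes tested. All 11 had a positive log2 fold change (median 1.78). All 11 also had an unadjusted p under 0.05, against 12.1% of all genes in either direction. EdgeR called 2 of them higher (0.863% of all genes in either direction) and DESeq2 9 (2.53% higher). Limma with the replicate block called 9 of the 11, where it called 402 of all 12980 genes. None of the 11 was at 0. The count called ran from 0 without high_iron replicate 3 to 6 without control_iron replicate 2, and was 1 without control_iron replicate 3 or high_iron replicate 1 or 2. Their summed level was 57.5, 155 and 79.6 CPM in control_iron replicates 1 to 3. In high_iron replicates 1 to 3 it was 438, 233 and 314 CPM, so the groups did not overlap. Control_iron replicate 1 was the lowest control and high_iron replicate 2 the lowest high_iron library in this sum, as for Mt1, while control_iron replicates 2 and 3 stood in the other order. The part of these cells in the metallothionein levels was not tested.

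Stellate cell markers summed to 135, 1043 and 534 CPM in the control and 218, 962 and 589 CPM in the high_iron libraries. Lymphocyte markers summed to 2.41 to 4.84 CPM in the control and 8.19 to 14.4 CPM in the high_iron libraries, without overlap. Of their 2 tested genes Ighm, an immunoglobulin heavy chain, rose in limma, against 0.832% of all genes tested. It was called by DESeq2 (2.53% of all genes higher) but not by edgeR, nor by limma without any 1 of the 6 libraries. Its part in the other results was not tested. Neutrophil markers reached at most 7.85 CPM in sum and cholangiocyte markers 6.01 CPM. Erythroid markers, hemoglobin chains above all, summed to 731 to 4139 CPM over all libraries, highest in replicate 2 of each diet.

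**Figure D5:**
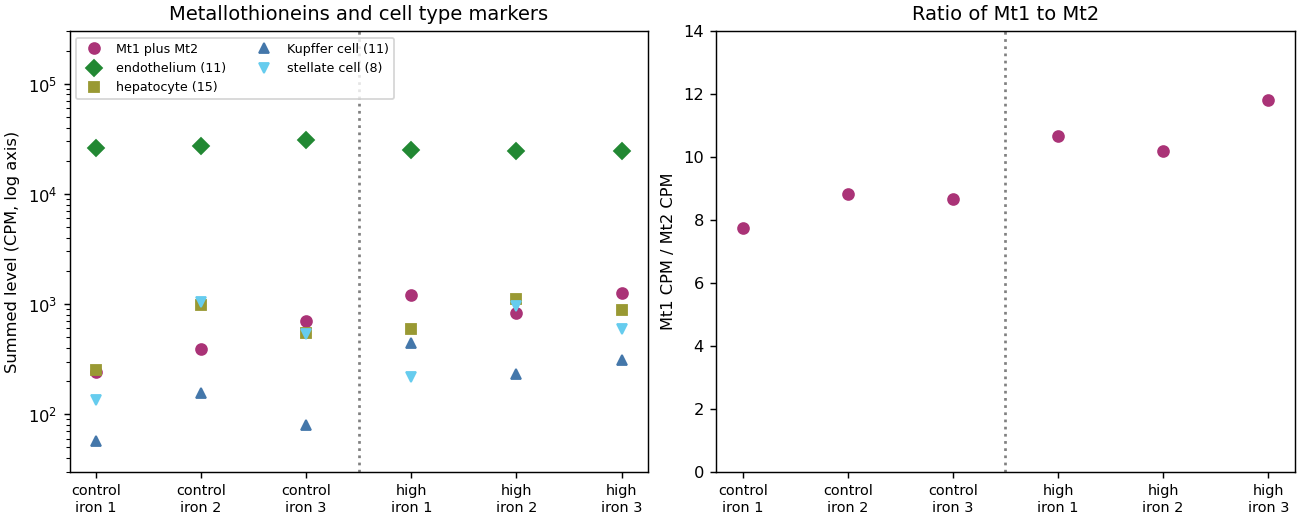
Left, summed level in CPM (log axis) of Mt1 plus Mt2 and of marker lists for endothelium, hepatocytes, Kupffer cells and stellate cells in each library, with the number of genes in brackets. Right, the ratio of Mt1 to Mt2 in CPM (axis from 0). Kupffer cell markers reach at most 155 CPM in the control and at least 233 CPM in the high_iron libraries, hepatocyte markers overlap, and the Mt1 to Mt2 ratio is at most 8.82 in the control and at least 10.2 in the high_iron libraries.

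The genes most like Mt1 over the 6 libraries were found by the root-mean-square difference of log2 deviations among 10199 other genes with a mean of at least 5 CPM. Mt2 was the closest (0.21), followed by Cystm1 (0.27), Mgst1 (0.27), Nav2 (0.29) and Lgals1 (0.33), where the median gene stood at 0.91. Mgst1, a membrane-bound glutathione S-transferase, rose from 102, 205 and 211 CPM to 423, 363 and 452 CPM (log2 fold change 1.32; adjusted p = 0.045). Lgals1, a galactose-binding lectin, was at 52.6, 103 and 164 CPM in the control and 192, 234 and 208 CPM in the high_iron libraries (adjusted p = 0.19). For Mt2 the closest was Nav2 (0.10), a long transcript of 28379 bases, at 6.91, 8.96 and 16.5 CPM in the control and 23.0, 18.3 and 22.0 CPM in the high_iron libraries (adjusted p = 0.17). Cystm1 (0.20), Mt1 (0.21), Hbegf (0.22) and Syt12 (0.23) came next. Because these genes were picked for likeness over the same 6 libraries, their higher high_iron levels follow from the choice and are no separate result.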

How the data were processed

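Endothelial cells were sorted from liver, and cDNA was made from 70 ng of RNA with a low-input kit, per the labels' protocols. Tools listed in the submitters' processing notes are STAR, HTSeq and edgeR, with the build mm10 and no versions. Annotation and counting options: not given in the sources used here. Both tables the authors deposited hold 39179 genes in 6 libraries. One is in CPM per the file headers, a signal that the authors had scaled by library before deposit. All 114253 values above 0 (100%) were whole multiples of 1 read within 0.001 read, so the reads were recovered, and recomputed TMM factors differed by at most 8.9e-16. The other holds RPKM, which per the file headers comes with a gene length in bases and equals CPM per kilobase of that length within 8.0e-11.

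Limma 3.58.1 (R 4.3.3) was fitted to log2(CPM + 1) with diet as the sole term, an intensity trend and 4 residual degrees of freedom, for genes with at least 1 CPM in at least 3 libraries. Tests were two-sided, p-values were adjusted by Benjamini-Hochberg, and 0.05 was the threshold. They measure only the spread between these samples. Alternatives were pseudocounts of 0.1 and 0.5, other filters, no trend, other scalings, a replicate block, each library left out, and edgeR 4.0.16 (quasi-likelihood) and DESeq2 1.42.0 on the recovered reads. The scripts were tested on simulated data. Chi-square per degree of freedom between libraries of a group was 16.0 to 76.2, and none was treated as a duplicate.

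The members and lists were chosen with earlier results of these data known. Listed genes were matched by symbol, or through the Ensembl identifier for 2 of them (Selenow and Adgre1). Named genes are the 5 members, called, abundant or smallest-p genes of the lists, and the 5 genes most like Mt1 and Mt2. Positions and overlaps are from GENCODE M21 (GRCm38), where 37607 of the identifiers were found, and similar transcripts were searched with BLAST+ 2.17.0.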

Additional observations from a re-analysis of the deposited data

How the results depend on the processing

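The log2 fold change of Mt1 was positive under all 17 alternatives (1.07 to 1.86), and it passed the threshold under 4: DESeq2 (1.33, adjusted p = 0.0022), the replicate block (1.45, adjusted p = 7.8e-04), centring on genes of like length (1.60) and the fit without control_iron replicate 3. Mt2 was positive under all 17 (0.75 to 1.44) and passed under 3: the block (1.06, adjusted p = 0.0085), length centring (1.21) and without control_iron replicate 3. With 1 library left out, Mt1 ran from 1.07 to 1.86 and Mt2 from 0.75 to 1.44, Mtf1 from 0.21 to 0.37 and Slc39a10 from -0.45 to -0.02. Mtf1 and Slc39a10 kept their direction and missed the threshold under all 17 alternatives. Slc30a1 missed the threshold under all 17 and ran from -0.04 to 0.26 with 1 library left out, turning negative in 3 of those fits (-0.02, -0.044 and -0.03). The Mt1 to Mt2 log2 ratio kept its sign under all 9 alternatives (0.33 to 0.44), 0.39 with the replicate block (exact p = 0.25, the smallest that 3 pairs allow).

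The number of genes called, 133, was 34 without a filter, 74 without the intensity trend, 424 with DESeq2 and 402 with the replicate block, and ran from 26 to 173 with 1 library left out. These counts shared 34, 63, 133 and 132 genes with the 133. It was 53 without control_iron replicate 3, and 52, 41 and 26 without high_iron replicates 1, 2 and 3. Leaving out a library also lowers the number of samples, and dropping the filter raises the number of genes tested. The cause of these differences in count was not tested. Same-numbered control_iron and high_iron libraries deviated from their group means with correlations of 0.13, 0.32 and 0.06 across genes. Between libraries of different number the correlations ran from -0.39 to 0.20, the highest for control_iron replicate 3 with high_iron replicate 1. The sample labels give no pairing, and whether same-numbered libraries share a batch was not tested. The block result is therefore not read as a paired result.

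Counting error of the 5 genes was at most 6.68% in any library. With 3 libraries per group the smallest exact p was 0.10.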

Other observations

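Copper handling, glucocorticoid response and STAT3 response were also read, since metallothioneins bind copper and answer to both kinds of signal. Of 12 copper genes 10 were tested, and limma, edgeR and DESeq2 called none (0 at an unadjusted p under 0.05), with a median log2 fold change of -0.11. The copper chaperone gene Atox1 was at 116, 209 and 304 CPM in control_iron replicates 1 to 3 and at 177, 125 and 153 CPM in high_iron replicates 1 to 3, so its control libraries had the same order as for Mt1 while its groups overlapped. Of 7 glucocorticoid-responsive genes none was called by limma, edgeR or DESeq2. In limma 2 had an unadjusted p under 0.05, against 12.1% of all genes tested. These were Fkbp5, a co-chaperone of the receptor, at 56.8 ± 7.23 and 72.6 ± 5.53 CPM (SD, n = 3), and Klf9, a transcription factor, at 205 ± 17.3 and 161 ± 21.6 CPM.

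Of 7 STAT3-responsive genes 6 were tested and limma called 1 higher, against 0.832% of all genes tested. This was Socs3, a feedback inhibitor of cytokine signalling. It was at 42.3, 38.9 and 29.2 CPM in the control and 67.8, 73.7 and 74.6 CPM in the high_iron libraries. Its log2 fold change was 0.97 ± 0.16 (SE; adjusted p = 0.031 in limma, 0.036 in edgeR and 2.3e-05 in DESeq2). With 1 library left out its limma adjusted p ran from 0.016 to 0.20, and it passed only without control_iron replicate 1. With the replicate block, and with length centring, limma called 1 of the 6. Cebpd, a transcription factor of the acute-phase response, was at 42.1 ± 8.61 and 26.9 ± 5.89 CPM and did not pass (adjusted p = 0.25).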
